A study of Rattus norvegicus with 12 samples.

Results

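The data described here are the 6 libraries, of 12 in the series, that set cells given a lentiviral vector with the control shRNA named ppluc against untransduced cells. Both groups were iAM-1 cells, a line made from atrial heart muscle cells of newborn rats (strain wistar) that carries a lentiviral gene for the LT-tsA58 T antigen, so that it can be switched between growth and differentiation. The ppluc shRNA group had 3 libraries of differentiated cells that received the shRNA vector shortly after differentiation had begun, and the untransduced group had 3 libraries of differentiated cells that received no shRNA vector. The cells of both groups were kept in Advanced DMEM/F-12 with 2% serum, without doxycycline during differentiation, and the titles mark all of them D9 and P10 without saying what this means. The other 6 libraries came from the same line with either of 2 shRNAs against Sbk2, the gene the series was about, here called Sbk2 shRNA 1 and Sbk2 shRNA 2. The comparison of ppluc shRNA with untransduced cells takes the vector, its eGFP marker, a control shRNA and the handling of transduction as a whole. No group of the series received a vector without an shRNA. Differences between the cultures of the groups cannot be told apart from these. The labels leave unsaid whether a group's 3 libraries were separate cultures, so that p-values measure the spread between libraries of a group, which may be technical. That spread was pooled over all 12 libraries of the series, so that it includes the spread within the Sbk2 shRNA groups.

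The features were those with at least 0.5 CPM (read counts scaled to the library total) in the authors' average of either group, which left 11915 of 32761. Just outside this limit lay Lrig3, with averages of 0.499 CPM with ppluc shRNA and 0.216 CPM in untransduced cells, and Ankdd1a, with 0.499 CPM with ppluc shRNA and 0.125 CPM in untransduced cells. Just inside it lay Fancb, with 0.325 CPM with ppluc shRNA and 0.501 CPM in untransduced cells, and Tnfrsf17, with 0.502 CPM with ppluc shRNA and 0.5 CPM in untransduced cells. The deposited values are the authors' group averages, and the reads of the single libraries were recovered from their stored digits. The totals were 38321704, 38944015 and 47517427 assigned reads in the ppluc shRNA libraries, named a, b and c by their total, and 30880786, 34919366 and 35082868 in the untransduced libraries. A floor of 3 reads was 0.0631 to 0.0971 CPM. On log2(CPM + 0.5) the first principal component of the 6 libraries held 84.3% of the variance and separated the groups, and pairs of libraries within a group correlated at 0.9967 to 0.997. Changes are given below as a log2 fold change of ppluc shRNA over untransduced on the log2(CPM + 0.5) scale ± SE. The SE and p come from limma with 3 libraries per group, fitted over all 12 libraries, and also carry the spread within the Sbk2 shRNA groups. A gene is called where its Benjamini-Hochberg adjusted p over all 11915 features is under 0.05. The pseudocount makes this scale understate the change of genes near or below 1 CPM.

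A lentiviral vector enters a cell as RNA, is copied into DNA and integrates into the genome, where its own promoters drive the shRNA and a marker gene. The shRNA hairpin is exported from the nucleus, cut by Dicer and loaded into an Argonaute protein, which then pairs with matching mRNAs. Cells carry sensors for foreign RNA and DNA that lead to interferon-stimulated genes, and kinases that slow translation under stress and raise amino acid supply through the transcription factor Atf4. A heart muscle cell also devotes much of its RNA to the sarcomere, to calcium cycling and to the mitochondria, which burn fatty acids.

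The transcripts of the vectors were in the libraries whose labels call for them. The authors' average of the eGFP marker, which the shRNA vector drives from a human ubiquitin C promoter, was 2417 CPM with ppluc shRNA and 0.105 CPM in untransduced cells. Several sets of library reads return the average of eGFP with ppluc shRNA, and the 1 set within the usual spread between libraries gave 2556, 2548 and 2147 CPM. The untransduced libraries held 0, 9 and 2 eGFP reads. The 3′ long terminal repeat of the shRNA vector had 580.5, 536.3 and 690.3 CPM with ppluc shRNA and 0 reads in each untransduced library. Library c had the highest level of the repeat. The features of vectors and transgenes together held 0.303% of the reads with ppluc shRNA.

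The T antigen of the immortalization vector, which both groups carry, was lower in the ppluc shRNA libraries. Its levels were 9.05, 8.35 and 7.96 CPM with ppluc shRNA, against 12.95, 12.8 and 10.5 CPM in untransduced cells, with a log2 fold change of -0.49 ± 0.10 and a limma adjusted p of 0.000285. The WHVPRE element, a viral sequence that stabilizes the RNA it sits in, fell by 0.27 ± 0.11 on the log2 scale (limma adjusted p = 0.0437), with 5.32, 5.08 and 4.46 CPM with ppluc shRNA, against 6.12, 6.13 and 5.99 CPM in untransduced cells. TetR-KRAB, the repressor that holds the T antigen off without doxycycline, had 0.809, 0.411 and 0.547 CPM with ppluc shRNA and 0.712, 0.659 and 0.77 CPM in untransduced cells, and these ranges overlap.

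The 4 genes that mark this comparison were chosen with earlier results of these data known, so that their separation and p-values only describe them. All 4 stood apart in every library. Cdkn1c, an inhibitor of cyclin-dependent kinases at chr1:216661080-216663721 (Rnor_6.0), had 684, 754 and 689.6 CPM in the ppluc shRNA libraries and 122, 143 and 137 CPM in the untransduced libraries, a log2 fold change of 2.40 ± 0.08. Mthfd2, a mitochondrial enzyme of folate metabolism at chr4:115004448-115015965, had 25.3, 25.1 and 24.3 CPM with ppluc shRNA and 2.56, 2.09 and 3.28 CPM without transduction, a log2 fold change of 3.03 ± 0.11. Both genes had ppluc shRNA libraries above the highest untransduced library without exception. Mb, which encodes the oxygen store myoglobin at chr7:118101634-118108864, had 1.98, 1.75 and 1.39 CPM with ppluc shRNA, against 9.65, 10.3 and 12.4 CPM in untransduced cells, a log2 fold change of -2.36 ± 0.16. Dhrs7c, a dehydrogenase of the sarcoplasmic reticulum at chr10:54352270-54370653, had 8.14, 9.19 and 8.14 CPM in the ppluc shRNA libraries and 49.9, 45.6 and 52.6 CPM in the untransduced libraries, a log2 fold change of -2.47 ± 0.13. The limma adjusted p-values were 1.21e-13 for Cdkn1c, 2.65e-13 for Mthfd2, 1.39e-09 for Mb and 4.38e-11 for Dhrs7c. In these bulk libraries fewer muscle-like cells and less of a muscle mRNA per cell cannot be told apart, here and for each muscle gene below.

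**Figure D1:**
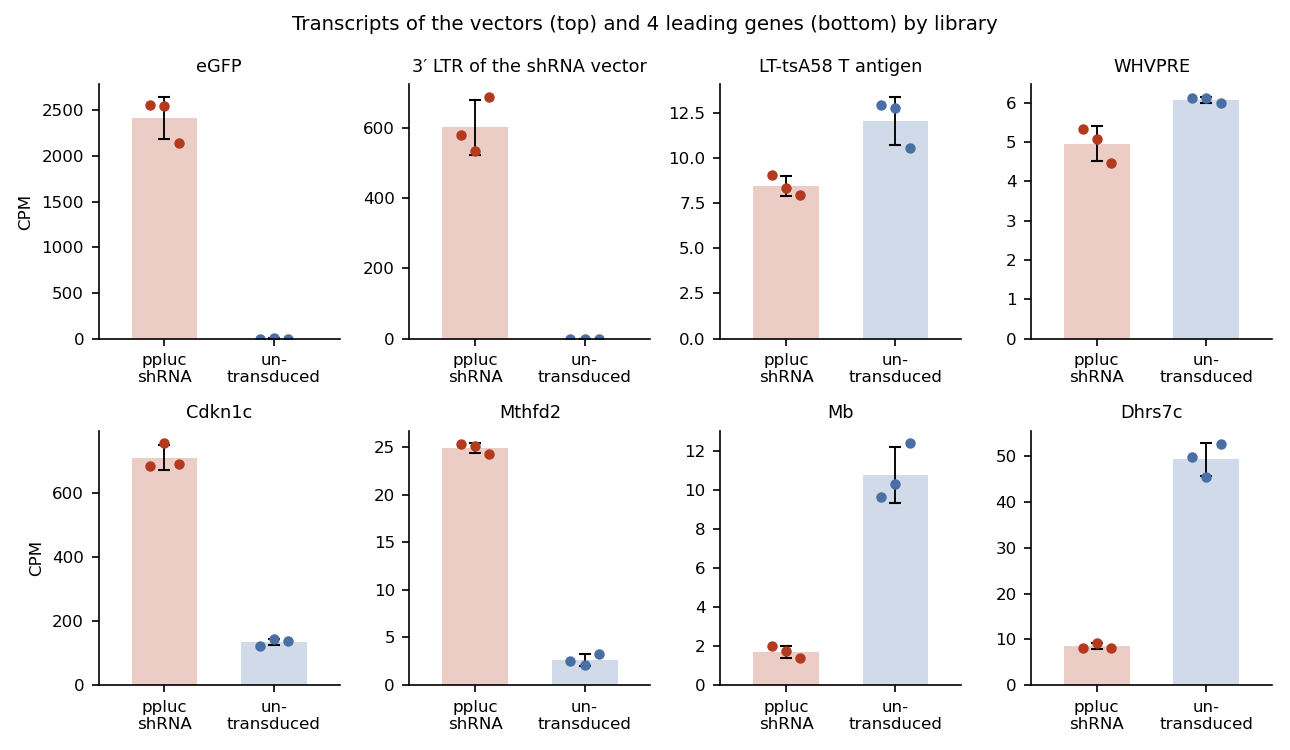
CPM of vector and transgene features and of 4 genes in each library (points), with group means as bars and the SD over 3 libraries as error bars, ppluc shRNA left of untransduced. The average of eGFP is 2417 CPM with ppluc shRNA, where its points are the set of reads within the usual spread, and 0.105 CPM in untransduced cells, while the T antigen, Mb and Dhrs7c are lower with ppluc shRNA.

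Over all 11915 features, 59.7% were called: 3078 higher with ppluc shRNA (25.8%) and 4041 lower (33.9%). The counts of each gene list below are to be read beside these shares. In 66.4% of features the 3 ppluc shRNA libraries lay wholly above or wholly below the 3 untransduced libraries. Most genes named below were picked for a small p or a large change, so that separate libraries follow largely from that choice. Most called changes were small: 62.6% of the 7119 called features had a log2 fold change under 0.5 in size, and the median size was 0.41. A change of 2-fold or more was called in 536 features, 258 higher and 278 lower, and one of 4-fold or more in 23 higher and 15 lower. The median log2 fold change over all features was -0.05. The test was most sensitive for abundant genes, with a median SE of 0.05 at 100 CPM or more and 0.18 between 0.5 and 2 CPM.

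Tg, which encodes the thyroid hormone precursor thyroglobulin, and Lrrc66 led the rises, with log2 fold changes of 3.92 ± 0.14 for Tg and 3.71 ± 0.14 for Lrrc66. Hapln3, a link protein of hyaluronan matrix, had 15.6, 15.3 and 16.6 CPM with ppluc shRNA and 2.88, 2.95 and 2.05 CPM without transduction, a log2 fold change of 2.40 ± 0.10. Mylk2, the myosin light chain kinase known from skeletal muscle, had 3.24, 3.75 and 3.85 CPM with ppluc shRNA, against 0.550, 0.315 and 0.542 CPM in untransduced cells, a log2 fold change of 2.09 ± 0.13. Dcst1 had 1.96, 2.70 and 1.999 CPM with ppluc shRNA and no read in any untransduced library. Among the 15 largest rises were also Svop (2.19), Pinlyp (2.18), Tmod2 (2.20), a capping protein of actin filaments, and Vwa3a (2.24), all as log2 fold changes.

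The 15 largest falls held several genes of heart and skeletal muscle. Txlnb, a muscle form of taxilin, had 3.13, 3.06 and 3.39 CPM in the ppluc shRNA libraries and 16.3, 17.2 and 14.8 CPM in the untransduced libraries, a log2 fold change of -2.17 ± 0.12. Rcan2, an inhibitor of the phosphatase calcineurin, had 25.9, 26.1 and 25.7 CPM with ppluc shRNA and 109, 109.9 and 110.3 CPM without transduction, a log2 fold change of -2.06 ± 0.15. Adssl1, the muscle form of adenylosuccinate synthase, had 11.04, 11.8 and 12.3 CPM with ppluc shRNA, against 43.7, 44.2 and 49.996 CPM in untransduced cells, a log2 fold change of -1.93 ± 0.12. In each of these genes the ppluc shRNA libraries lay close together and far below the untransduced ones. Gng2, a G protein gamma subunit, had 75.3, 73.4 and 78.2 CPM in the ppluc shRNA libraries and 315, 310.3 and 293 CPM in the untransduced libraries, and Car14, a membrane-bound carbonic anhydrase, had 7.72, 7.40 and 7.34 CPM with ppluc shRNA and 29.1, 33.5 and 33.1 CPM without transduction. Their log2 fold changes were -2.01 ± 0.07 for Gng2 and -2.02 ± 0.12 for Car14. Macrod1, a mitochondrial ADP-ribose hydrolase, fell by 2.34 ± 0.10 on the log2 scale, and Col28a1, a collagen, fell by 2.17 ± 0.14.

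**Figure D2:**
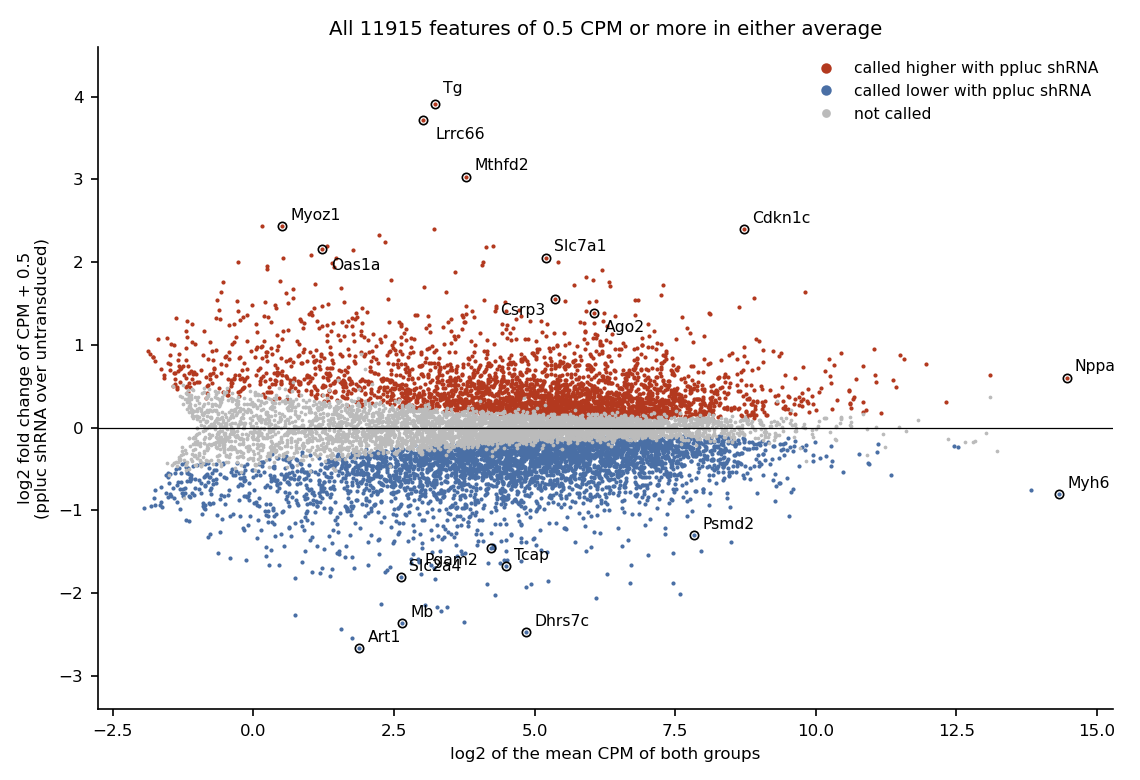
Log2 fold change of ppluc shRNA over untransduced (y axis) against the log2 of the mean CPM (x axis) for the 11915 features, with called features coloured and 18 genes circled. The eGFP marker, at 11.98, and the 3′ long terminal repeat of the shRNA vector, at 10.23, lie above the y axis and are not shown. Called features lie on both sides of 0 at all levels, and most lie within 0.5 of it.

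Promoter sequences are shown here because some groups of genes described next often hold short motifs known from the literature on interferon and on amino acid stress. The windows span 250 bases before to 50 bases after the gene start and come from RefSeq (rat assembly GRCr8), which had 27457 genes with a window. Of the kept features, 8978 matched by symbol or by a synonym that belongs to a single gene. The letters searched on both strands were GAAANNGAA, the core of the interferon-stimulated response element, and TGATGNAA with its extension TGATGNAAT, the element read by Atf4 and its C/EBP partners. TGATGNAAT lies within TGATGNAA, and the shorter form was added after the longer one had been counted. GAAANNGAA was in 10.3% of all genes with a window and in 7.32% of kept features. It was in 72.4% of interferon-stimulated effectors (21 of 29), in 60% of antigen presentation genes (6 of 10), in 44.4% of sensors (4 of 9) and in 1 of 10 genes of interferon receptors and signalling. Of the genes with GAAANNGAA in these lists, Ifi44l and Isg20 were called lower, with log2 fold changes of -0.30 for Ifi44l and -0.25 for Isg20. Ifitm2, Gbp1, Gbp5, Cmpk2, Ddx60, Psme2 and Socs1 were not called, and the others were called higher. TGATGNAA was in 4.16% of all genes and in 2.07% of kept features, and in 7 of 17 cytosolic tRNA synthetases, 3 of 10 genes of amino acid synthesis, 3 of 12 amino acid transporters, 3 of 17 integrated stress response factors, 1 of 15 chaperones of the endoplasmic reticulum and 0 of 12 serine and one-carbon enzymes. The windows of Mthfd2 and Asns, the asparagine synthetase, both called higher, held no TGATGNAA, and that of Got1, called lower, held it. TGATGNAAT was in 1.14% of all genes and in 0.468% of kept features, and in 5 list members, Aars, Iars, Pycr1, Bves and Cox6a2. A match describes the letters of the window and is not evidence of binding.

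The 6 windows below were picked from called genes that hold a motif, and each line gives a gene and its window 5′ to 3′ on the strand of the gene, with the motif in capitals. The first 3 windows hold GAAANNGAA, in Oas1a at chr12:41330216-41330515 (plus strand, 2 overlapping matches), in Ifih1 at chr3:67683919-67684218 (minus strand) and in Psmb10 at chr19:50743243-50743542 (minus strand, 3 matches, of which 2 overlap).
Oas1a: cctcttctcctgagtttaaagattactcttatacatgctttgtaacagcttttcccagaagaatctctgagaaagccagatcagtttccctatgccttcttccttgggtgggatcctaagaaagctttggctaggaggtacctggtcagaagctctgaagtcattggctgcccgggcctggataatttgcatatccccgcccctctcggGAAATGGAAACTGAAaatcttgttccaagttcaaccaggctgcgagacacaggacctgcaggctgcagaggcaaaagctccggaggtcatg
Ifih1: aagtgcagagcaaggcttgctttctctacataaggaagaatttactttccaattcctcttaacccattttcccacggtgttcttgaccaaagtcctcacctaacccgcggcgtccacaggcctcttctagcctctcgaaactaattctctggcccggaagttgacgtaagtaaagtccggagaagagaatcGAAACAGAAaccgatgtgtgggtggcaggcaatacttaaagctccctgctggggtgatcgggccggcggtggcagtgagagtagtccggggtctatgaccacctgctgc
Psmb10: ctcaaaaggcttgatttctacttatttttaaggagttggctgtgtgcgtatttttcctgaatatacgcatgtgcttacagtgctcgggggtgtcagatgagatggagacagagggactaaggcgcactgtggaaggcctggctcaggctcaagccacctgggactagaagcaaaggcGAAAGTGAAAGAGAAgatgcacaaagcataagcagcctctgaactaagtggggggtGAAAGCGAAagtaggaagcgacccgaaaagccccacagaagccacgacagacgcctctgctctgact
The next 3 hold the amino acid stress motif, in Slc7a1 at chr12:11664238-11664537 (plus strand, TGATGNAA), in Iars at chr17:15193603-15193902 (minus strand, TGATGNAAT read on the other strand) and in Pycr1 at chr10:106420763-106421062 (minus strand, TGATGNAAT).
Slc7a1: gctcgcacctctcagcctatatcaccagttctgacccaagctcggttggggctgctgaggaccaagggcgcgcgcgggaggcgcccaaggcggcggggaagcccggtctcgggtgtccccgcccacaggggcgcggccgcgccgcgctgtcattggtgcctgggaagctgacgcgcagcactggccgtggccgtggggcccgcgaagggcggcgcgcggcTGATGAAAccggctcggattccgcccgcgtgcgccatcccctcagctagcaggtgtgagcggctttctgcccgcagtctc
Iars: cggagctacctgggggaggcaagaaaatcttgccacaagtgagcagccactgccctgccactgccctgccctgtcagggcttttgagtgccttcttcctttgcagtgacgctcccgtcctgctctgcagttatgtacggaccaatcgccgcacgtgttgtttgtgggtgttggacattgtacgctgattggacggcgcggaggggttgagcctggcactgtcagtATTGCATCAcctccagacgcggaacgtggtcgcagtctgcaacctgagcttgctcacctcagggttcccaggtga
Pycr1: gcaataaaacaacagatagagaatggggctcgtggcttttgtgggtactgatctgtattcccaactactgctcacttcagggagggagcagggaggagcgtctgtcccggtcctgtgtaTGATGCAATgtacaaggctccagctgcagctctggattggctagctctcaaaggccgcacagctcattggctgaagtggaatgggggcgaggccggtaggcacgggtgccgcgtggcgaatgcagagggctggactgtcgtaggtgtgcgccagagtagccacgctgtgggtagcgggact
All 6 genes were called higher with ppluc shRNA, and their levels follow.

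Genes that bring amino acids into the cell were mostly higher. Of 12 amino acid transporters kept, 9 rose, 1 fell and 2 were not called, with a median log2 fold change of 0.56 against -0.05 over all features. Slc7a1, the main importer of arginine, had 55.8, 61.8 and 60.6 CPM with ppluc shRNA, against 16.03, 12.3 and 13.6 CPM in untransduced cells, a log2 fold change of 2.05 ± 0.08 (limma adjusted p = 1.54e-12). Slc6a9, a glycine importer, had 9.003, 7.73 and 7.77 CPM in the ppluc shRNA libraries and 1.20, 1.37 and 1.11 CPM in the untransduced libraries, a log2 fold change of 2.33 ± 0.12. Slc1a4, an exchanger of serine and other neutral amino acids, had 82.96, 84.3 and 78.01 CPM with ppluc shRNA and 42.6, 41.7 and 35.5 CPM without transduction, a log2 fold change of 1.03 ± 0.07. Every ppluc shRNA library lay above every untransduced one in these 3 genes, which were named for their small p. Of all features, 66.4% did not overlap. Slc3a2, the heavy chain that several transporters share, rose by 0.71 ± 0.06 on the log2 scale. Slc38a2, a sodium-coupled importer of neutral amino acids, was the 1 that fell, with 378, 355 and 334 CPM with ppluc shRNA, against 463, 441 and 428 CPM in untransduced cells, a log2 fold change of -0.32 ± 0.05.

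Enzymes that make amino acids and one-carbon units moved in both directions. Of 16 serine and one-carbon enzymes kept, 6 rose and 6 fell (37.5% each), against 25.8% higher and 33.9% lower over all features. Without a filter on low values or without ppluc shRNA library b 3 fell. The mitochondrial enzymes Mthfd2, given above, and Aldh1l2 led the rises, and Aldh1l2 had 12.8, 13.4 and 12.2 CPM in the ppluc shRNA libraries and 4.24, 3.09 and 3.51 CPM in the untransduced libraries, a log2 fold change of 1.70 ± 0.11. Phgdh, the first enzyme of serine synthesis, rose by 0.65 ± 0.07, and Shmt1, the cytosolic serine hydroxymethyltransferase, had a log2 fold change of -0.63 ± 0.09. Of 12 genes of amino acid synthesis kept, 4 rose (33.3%) and 5 fell (41.7%). Bcat1, the cytosolic aminotransferase of branched-chain amino acids, had 113, 113 and 101 CPM with ppluc shRNA and 41.5, 42.7 and 39.3 CPM without transduction, a log2 fold change of 1.39 ± 0.06. Pycr1, the last enzyme of proline synthesis, had 4.10, 5.70 and 4.42 CPM with ppluc shRNA, against 1.42, 1.78 and 1.71 CPM in untransduced cells, a log2 fold change of 1.29 ± 0.14. Got1, the cytosolic aspartate aminotransferase, moved the other way, with 44.5, 48.6 and 45.1 CPM in the ppluc shRNA libraries and 82.1, 81.7 and 78.98 CPM in the untransduced libraries, a log2 fold change of -0.81 ± 0.08.

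Of 20 cytosolic tRNA synthetases, the enzymes that load amino acids onto tRNAs, 12 rose and 4 fell, with a median of 0.19. The count of falls was 2 with either of the other library scalings and without untransduced library c. Cars, for cysteine, had 109, 116 and 116 CPM with ppluc shRNA and 48.7, 51.8 and 53.9 CPM without transduction, a log2 fold change of 1.14 ± 0.05. Iars, for isoleucine, had 39.3, 38.5 and 38.2 CPM with ppluc shRNA, against 20.6, 17.2 and 16.6 CPM in untransduced cells, a log2 fold change of 1.08 ± 0.08. Aars, for alanine, had 325, 334 and 328 CPM in the ppluc shRNA libraries and 187, 174 and 194 CPM in the untransduced libraries, a log2 fold change of 0.83 ± 0.05. The groups did not overlap in any of these 3 genes. Farsa, a subunit of the phenylalanine enzyme, had the lowest log2 fold change of the list at -0.23 ± 0.06. Of the 7 synthetases with TGATGNAA in their window, Aars, Cars, Iars, Mars, Nars and Tars were called higher and Yars was not called.

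The transcription factors and effectors of the integrated stress response rose in 11 of 18 kept members and fell in 1, with a median of 0.30. Atf5, a transcription factor translated under this stress, had 91.8, 97.2 and 92.1 CPM with ppluc shRNA and 38.9, 40.1 and 36.9 CPM without transduction, a log2 fold change of 1.27 ± 0.05 (limma adjusted p = 5.09e-13). Trib3, a pseudokinase that feeds back on Atf4, had 6.99, 7.75 and 8.54 CPM with ppluc shRNA, against 2.69, 2.72 and 3.31 CPM in untransduced cells, a log2 fold change of 1.28 ± 0.12. Ddit4, an inhibitor of the growth kinase mTORC1, had 50.4, 52.3 and 50.5 CPM in the ppluc shRNA libraries and 25.5, 26.5 and 28.3 CPM in the untransduced libraries, a log2 fold change of 0.92 ± 0.06. The ppluc shRNA libraries lay above the untransduced ones in each. Stc2, a secreted glycoprotein, was the member that fell, with a log2 fold change of -0.36 ± 0.11. Among 20 chaperones and other genes of the endoplasmic reticulum's unfolded protein response, 9 rose and 4 fell, with 2 falls under either other scaling and without untransduced library c. Dnajc3, a co-chaperone, had 87.5, 78.98 and 87.1 CPM with ppluc shRNA and 45.7, 48.8 and 46.6 CPM without transduction, a log2 fold change of 0.84 ± 0.05, and Pdia4, a disulfide isomerase, had a log2 fold change of -0.30 ± 0.05.

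Sensors of foreign nucleic acids rose in 8 of 14 kept members and fell in 3, with a median of 0.21. Ifih1, which senses long double-stranded RNA, had 44.8, 38.3 and 48.7 CPM with ppluc shRNA, against 21.9, 22.4 and 22.7 CPM in untransduced cells, a log2 fold change of 0.95 ± 0.07 (limma adjusted p = 3.79e-09). Irf7, a transcription factor that turns on interferon genes, had 56.97, 55.3 and 78.5 CPM in the ppluc shRNA libraries and 27.3, 27.1 and 30.4 CPM in the untransduced libraries, a log2 fold change of 1.14 ± 0.10. Zc3hav1, which binds and degrades viral RNA, had 94.1, 87.2 and 96.4 CPM with ppluc shRNA and 61.9, 63.9 and 61.7 CPM without transduction, a log2 fold change of 0.56 ± 0.05. The groups did not overlap, and Irf7 was highest in ppluc shRNA library c. Tlr3, the endosomal sensor of double-stranded RNA, fell, with 28.7, 30.3 and 29.6 CPM with ppluc shRNA, against 44.1, 42.4 and 40.6 CPM in untransduced cells, a log2 fold change of -0.51 ± 0.05. Ikbke, a kinase of the interferon pathway, also fell, with 18.9, 16.97 and 21.003 CPM in the ppluc shRNA libraries and 30.02, 34.4 and 34.3 CPM in the untransduced libraries, a log2 fold change of -0.78 ± 0.11. The interferon gene Ifnb1 had no read in either group.

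Of 32 interferon-stimulated effectors kept, 22 rose and 3 fell, with a median of 0.45 and a range of -0.75 to 2.16. With trimmed-mean scaling 23 rose and 1 fell. Oas1a, a synthetase that activates RNase L, had 2.92, 2.77 and 6.78 CPM with ppluc shRNA and 0.259, 1.03 and 0.285 CPM without transduction, a log2 fold change of 2.16 ± 0.27 (limma adjusted p = 1.89e-06). Oas1f, a relative of Oas1a, had 5.30, 3.11 and 9.49 CPM with ppluc shRNA, against 0.648, 1.40 and 0.599 CPM in untransduced cells, a log2 fold change of 2.15 ± 0.27. In both genes ppluc shRNA library c was more than 1.5 times as high as libraries a and b, and untransduced library b was the highest of its group. Without library c the log2 fold change of Oas1a was 1.79 and the log2 fold change of Oas1f was 1.77. Ifitm3, which blocks fusion of enveloped viruses, had 36.8, 28.5 and 38.03 CPM in the ppluc shRNA libraries and 16.5, 14.5 and 12.8 CPM in the untransduced libraries, a log2 fold change of 1.20 ± 0.10. Bst2, which tethers budding virus to the cell, had 45.1, 42.1 and 63.9 CPM with ppluc shRNA and 21.05, 24.1 and 23.3 CPM without transduction, a log2 fold change of 1.10 ± 0.10, and the log2 fold change of Bst2 without library c was 0.92. Usp18, which removes the ubiquitin-like protein Isg15 and damps interferon signalling, had 10.4, 7.81 and 17.05 CPM with ppluc shRNA, against 5.47, 6.53 and 4.65 CPM in untransduced cells, a log2 fold change of 0.96 ± 0.20, and the log2 fold change of Usp18 without library c was 0.67. No source used here tells how reads shared within the Oas and Ifitm families were counted, so that the share of each member is uncertain. Samhd1, which depletes nucleotides and limits reverse transcription, moved the other way, with 2.30, 2.98 and 3.07 CPM in the ppluc shRNA libraries and 5.67, 4.50 and 4.90 CPM in the untransduced libraries, a log2 fold change of -0.75 ± 0.14. Isg15 itself, picked after its values were seen, averaged 19.3 CPM with ppluc shRNA and 4.68 CPM in untransduced cells. Mx1, Oas2, Oas3, Ifit1, Ifit2 and Ifit3 stayed under 0.5 CPM in both averages.

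Antigen presentation through class I molecules rose in 11 of 12 kept genes, with a median of 0.58, and the remaining gene, Psme2, was not called. RT1-A2, a rat class I heavy chain, had 338, 339 and 343 CPM with ppluc shRNA and 195, 204 and 199 CPM without transduction, a log2 fold change of 0.77 ± 0.04 (limma adjusted p = 1.24e-10). Tap1, a peptide transporter, had 79.02, 79.2 and 80.1 CPM with ppluc shRNA, against 48.4, 47.4 and 45.8 CPM in untransduced cells, a log2 fold change of 0.75 ± 0.05. Nlrc5, the transactivator of class I genes, had 28.1, 29.9 and 32.8 CPM in the ppluc shRNA libraries and 17.4, 17.5 and 17.4 CPM in the untransduced libraries, a log2 fold change of 0.78 ± 0.07. The groups did not overlap in these 3 genes. Psmb10, a subunit of the immunoproteasome, had 24.7, 25.2 and 28.2 CPM with ppluc shRNA and 15.2, 18.4 and 18.5 CPM without transduction, a log2 fold change of 0.58 ± 0.07. RT1-A1 and RT1-A2 are close relatives, and their shared reads are uncertain in the same way as those of the Oas genes. The class II genes RT1-Ba, RT1-Da and Cd74 and their activator Ciita were under 0.5 CPM in both averages.

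**Figure D3:**
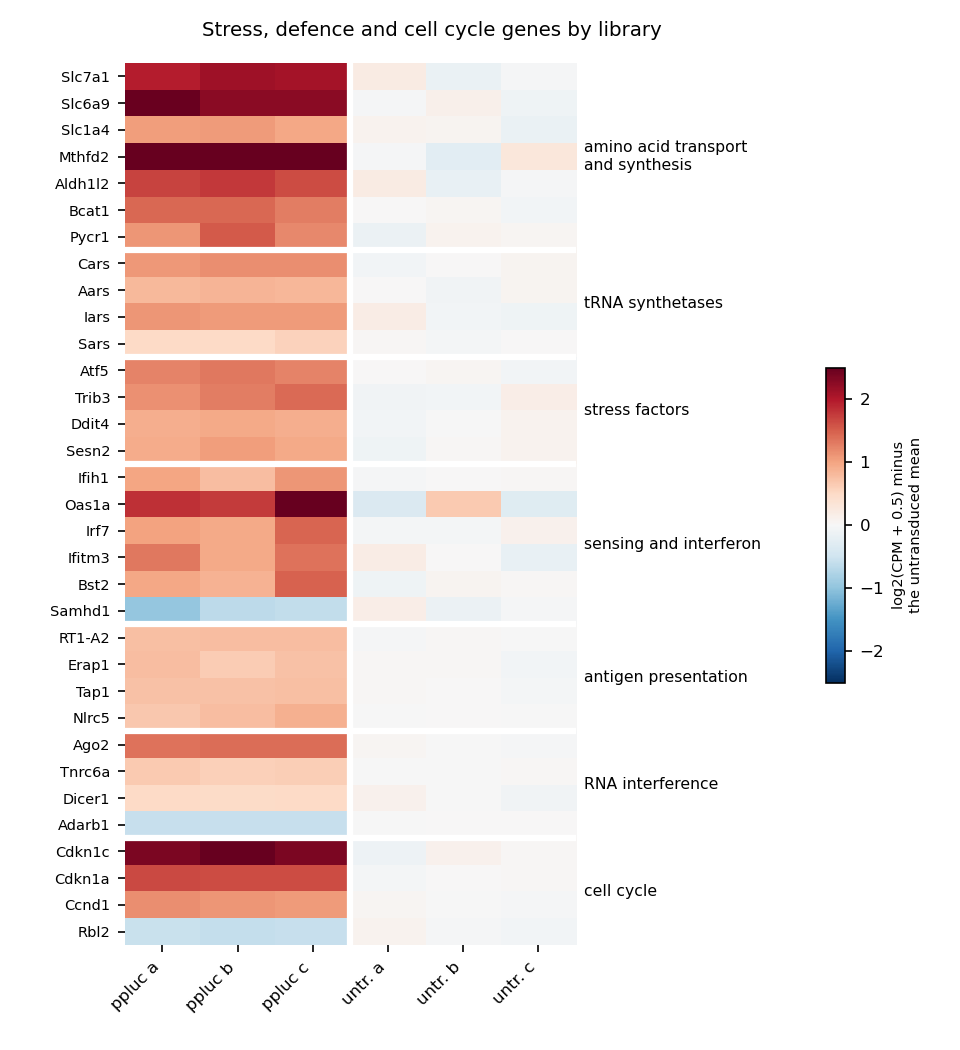
Each cell gives log2(CPM + 0.5) of a library minus the mean of the 3 untransduced libraries, on a colour scale of ±2.5, for genes of amino acid supply, stress, defence, RNA interference and the cell cycle, with the ppluc shRNA libraries left. The ppluc shRNA columns are alike for most genes, and library c is higher for Oas1a.

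The machinery that handles an shRNA was mixed, with 8 of 19 genes higher (42.1%) and 5 lower (26.3%) and a median of 0.09. Over all features 25.8% rose and 33.9% fell. Of these falls 3 were called under either other scaling and without untransduced library b. Ago2, the Argonaute that cuts the target mRNA, had 95.4, 97.8 and 97.5 CPM with ppluc shRNA, against 37.98, 36.2 and 35.9 CPM in untransduced cells, a log2 fold change of 1.39 ± 0.06 (limma adjusted p = 4.54e-12). Dicer1, which cuts the hairpin, had 115, 114 and 115 CPM in the ppluc shRNA libraries and 88.3, 80.8 and 76.4 CPM in the untransduced libraries, a log2 fold change of 0.49 ± 0.06. Tnrc6a, a partner of Argonaute in silencing, had 188, 181 and 184 CPM with ppluc shRNA and 119, 118 and 122 CPM without transduction, a log2 fold change of 0.62 ± 0.05. Ago2 had the largest log2 fold change of this list, and the groups did not overlap in any of these 3 genes. Adarb1, an editor of double-stranded RNA, had the lowest log2 fold change at -0.57 ± 0.05. Drosha, Dgcr8, Tarbp2 and Tnrc6b were not called.

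Factors known to help or hinder lentiviruses rose in 12 of 24 genes and fell in 4, or in 2 under either other scaling, without untransduced library a and without ppluc shRNA library a. Cpsf6, a nuclear protein that binds the viral capsid, had 189, 186 and 187 CPM with ppluc shRNA, against 101, 97.2 and 92.5 CPM in untransduced cells, a log2 fold change of 0.95 ± 0.05. Psip1, which guides integration to active genes, had 154, 138 and 153 CPM in the ppluc shRNA libraries and 113, 112 and 112 CPM in the untransduced libraries, a log2 fold change of 0.39 ± 0.05. The groups did not overlap in either gene. Lrp1, a member of the receptor family used by the VSV-G envelope common in vector work, was not called, and no source used here names the envelope of these vectors.

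Targets of p53, the factor that halts the cell cycle after damage, rose in 15 of 22 kept genes and fell in 4, with a median of 0.55. Aen, a nuclease, had 156, 163 and 166 CPM with ppluc shRNA and 84.4, 87.5 and 95.6 CPM without transduction, a log2 fold change of 0.86 ± 0.05. Sesn2, a stress protein that limits mTORC1 and is shared with the stress response list, had 167, 180.2 and 168 CPM with ppluc shRNA, against 80.1, 88.7 and 92.2 CPM in untransduced cells, a log2 fold change of 0.98 ± 0.05. Ddb2, a sensor of DNA damage, moved the other way at low counts, with 1.62, 1.54 and 2.36 CPM in the ppluc shRNA libraries and 3.56, 2.92 and 2.28 CPM in the untransduced libraries, a log2 fold change of -0.55 ± 0.16. Of 18 cyclin-dependent kinase inhibitors, D cyclins and Rb family genes kept, 9 rose (50%) and 7 fell (38.9%). Over all features 25.8% rose and 33.9% fell. Beside the inhibitor Cdkn1c, the inhibitor Cdkn1a rose by 1.64 ± 0.10 on the log2 scale. Ccnd1, a D cyclin, also rose, with 362, 349 and 342 CPM with ppluc shRNA and 167, 161 and 159 CPM without transduction, a log2 fold change of 1.11 ± 0.05. Rbl2, a member of the Rb family, had 26.04, 25.2 and 25.5 CPM with ppluc shRNA, against 41.1, 37.5 and 36.9 CPM in untransduced cells, a log2 fold change of -0.58 ± 0.06, and Cdkn2c, another inhibitor, had a log2 fold change of -0.58 ± 0.09.

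Genes of DNA replication and mitosis moved in both directions. Of 27 kept, 13 rose and 7 fell, with 4 falls under a limit of 1 CPM, without untransduced library a or without ppluc shRNA library b. Kif23, a motor of cell division, had 5.06, 4.72 and 5.41 CPM in the ppluc shRNA libraries and 2.46, 2.55 and 2.37 CPM in the untransduced libraries, a log2 fold change of 0.91 ± 0.11. Tk1, a thymidine kinase, had 3.24, 3.21 and 3.41 CPM with ppluc shRNA and 5.83, 5.93 and 6.27 CPM without transduction, a log2 fold change of -0.78 ± 0.12. Top2a, Ccna2, Cenpf and Ttk were under 0.5 CPM in both averages. Cdkn1c is also an imprinted gene, of which 12 were kept, with 6 higher and 3 lower. Igf2r had 506, 605 and 529 CPM with ppluc shRNA, against 402, 367 and 373 CPM in untransduced cells, a log2 fold change of 0.52 ± 0.08, and Plagl1, near the read floor with ppluc shRNA, had 0.0522, 0.103 and 0.0210 CPM in the ppluc shRNA libraries and 0.615, 0.716 and 0.399 CPM in the untransduced libraries.

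Sarcomere genes moved in both directions. Among 26 genes of the Z-disc, M-band and sarcomere assembly, 17 fell and 7 rose, with a median of -0.32. Tcap, which caps titin at the Z-disc, had 9.66, 10.6 and 11.2 CPM with ppluc shRNA and 33.9, 35.5 and 34.1 CPM without transduction, a log2 fold change of -1.68 ± 0.17 (limma adjusted p = 1.32e-07). Obsl1, a scaffold related to obscurin, had 139, 147 and 141 CPM with ppluc shRNA, against 239.8, 263 and 261 CPM in untransduced cells, a log2 fold change of -0.84 ± 0.05. Myom1, an M-band crosslinker, had 476, 479.6 and 483 CPM in the ppluc shRNA libraries and 779.5, 765 and 802 CPM in the untransduced libraries, a log2 fold change of -0.71 ± 0.07. All 3 were lower in each ppluc shRNA library than in any untransduced one. Csrp3, a Z-disc protein, rose, with 58.1, 57.5 and 68.5 CPM with ppluc shRNA and 20.1, 19.99 and 21.2 CPM without transduction, a log2 fold change of 1.56 ± 0.08 (limma adjusted p = 2.23e-11). Neb, the thin filament ruler of skeletal muscle, rose as well, with 31.7, 38.003 and 40.4 CPM with ppluc shRNA, against 15.3, 14.1 and 13.9 CPM in untransduced cells, a log2 fold change of 1.31 ± 0.12. Myoz1, a calcineurin-binding Z-disc protein of fast skeletal muscle, is on none of the lists and had 2.97, 2.47 and 2.82 CPM in the ppluc shRNA libraries and 0.0971, 0.115 and 0.0855 CPM in the untransduced libraries, with 2 of 3 untransduced libraries at the floor of 3 reads.

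In the thick and thin filaments 5 of 19 kept genes rose (26.3%) and 7 fell (36.8%), shares near those over all features, with a median of -0.17. The authors' averages of Myh6, the atrial myosin heavy chain, were 15060.00 CPM with ppluc shRNA and 26145 CPM in untransduced cells, and no library error is given because its reads could not be fixed to 1 solution. Myh7, the slow form, had 137, 147 and 168 CPM with ppluc shRNA and 269.7, 229.6 and 230.5 CPM without transduction, a log2 fold change of -0.69 ± 0.09. Tnnc1, the calcium-binding troponin, had 519, 474 and 513 CPM with ppluc shRNA, against 734, 723 and 752 CPM in untransduced cells, a log2 fold change of -0.55 ± 0.05. Both lay below the untransduced libraries throughout. Tropomyosins moved the other way, where Tpm4, a form found mainly outside muscle sarcomeres, had 281, 280.4 and 312 CPM in the ppluc shRNA libraries and 125, 122 and 131 CPM in the untransduced libraries, a log2 fold change of 1.21 ± 0.07, and Tpm3 had 152, 153 and 156 CPM with ppluc shRNA and 81.7, 81.9 and 85.2 CPM without transduction, a log2 fold change of 0.89 ± 0.05.

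Calcium handling fell in 13 of 26 kept genes (50%) and rose in 5 (19.2%), with a median of -0.26. Over all features 33.9% fell and 25.8% rose. Pln, the inhibitor of the calcium pump of the sarcoplasmic reticulum, had 474, 464 and 487 CPM with ppluc shRNA, against 1028, 993 and 961 CPM in untransduced cells, a log2 fold change of -1.07 ± 0.05 (limma adjusted p = 1.6e-11). Ryr2, the calcium release channel, had 365, 434 and 407 CPM in the ppluc shRNA libraries and 589.5, 529.8 and 541 CPM in the untransduced libraries, a log2 fold change of -0.46 ± 0.08. Cacna1c, the L-type calcium channel, had 131, 153 and 132 CPM with ppluc shRNA and 226, 221 and 219 CPM without transduction, a log2 fold change of -0.68 ± 0.06. The pump itself, Atp2a2, averaged 10831 CPM with ppluc shRNA and 18131 CPM in untransduced cells, without a library error for the reason given for Myh6. Jph1, which joins the reticulum to the surface membrane, had a log2 fold change of -0.75 ± 0.06. Cacna1d, the L-type channel known from pacemaker cells, rose at low counts, with 1.90, 2.16 and 2.80 CPM with ppluc shRNA, against 0.550, 1.23 and 0.485 CPM in untransduced cells, a log2 fold change of 1.19 ± 0.20.

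Ion channels and connexins fell in 10 of 19 kept genes and rose in 4. Hcn4, the pacemaker channel, had 311, 303 and 296 CPM in the ppluc shRNA libraries and 137, 153 and 153 CPM in the untransduced libraries, a log2 fold change of 1.04 ± 0.07 (limma adjusted p = 2.17e-09). Gja5, the connexin of atria and conduction fibres, had 20.9, 17.6 and 20.8 CPM with ppluc shRNA and 9.46, 9.59 and 8.81 CPM without transduction, a log2 fold change of 1.05 ± 0.12. Gjc1, a connexin of the nodes, had 37.7, 36.3 and 35.4 CPM with ppluc shRNA, against 67.97, 64.5 and 72.4 CPM in untransduced cells, a log2 fold change of -0.89 ± 0.07. Hcn4 and Gja5 were higher, and Gjc1 lower, in every ppluc shRNA library. The potassium channel genes Kcnj11, a subunit of the ATP-sensitive channel, and Kcnq1 had log2 fold changes of -0.84 ± 0.07 for Kcnj11 and -0.71 ± 0.08 for Kcnq1. The T-type calcium channel Cacna1g and the connexin Gja1 were not called.

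Atrial markers were called higher in 5 of 17 kept (29.4%) and lower in 6 (35.3%), near the 25.8% and 33.9% over all features, with 2 higher once genes of uncertain reads were left out. Bmp10, a growth factor made by atrial muscle, had 167, 169 and 177 CPM in the ppluc shRNA libraries and 60.3, 58.2 and 57.1 CPM in the untransduced libraries, a log2 fold change of 1.54 ± 0.10 (limma adjusted p = 4.66e-10). Nppb, a natriuretic peptide, had 229, 227 and 253 CPM with ppluc shRNA and 342, 329.7 and 324 CPM without transduction, a log2 fold change of -0.49 ± 0.06, and the authors' averages of the related Nppa were 27264 CPM with ppluc shRNA and 17825 CPM in untransduced cells. Sbk2 and its relative Sbk3, the kinases the series studied, fell in this control comparison too, with 29.6, 24.8 and 26.9 CPM with ppluc shRNA, against 42.6, 47.3 and 45.6 CPM in untransduced cells for Sbk2 and 4.54, 3.59 and 4.19 CPM in the ppluc shRNA libraries and 6.87, 7.02 and 7.33 CPM in the untransduced libraries for Sbk3. Their log2 fold changes were -0.73 ± 0.10 for Sbk2 and -0.72 ± 0.14 for Sbk3. Sbk1 had no read with ppluc shRNA and 2, 3 and 2 reads in the untransduced libraries. Of cardiac transcription factors, 10 of 19 kept fell and 2 rose. Mef2c had 121, 119 and 107 CPM with ppluc shRNA and 187, 177 and 174 CPM without transduction, a log2 fold change of -0.63 ± 0.06, and Prox1 had a log2 fold change of -0.69 ± 0.07. Zfpm1, a cofactor of Gata proteins, rose by 0.61 ± 0.07 while its relative Zfpm2 fell by 1.22 ± 0.07 on the log2 scale, and Gata4, Tbx5 and Myocd were not called.

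**Figure D4:**
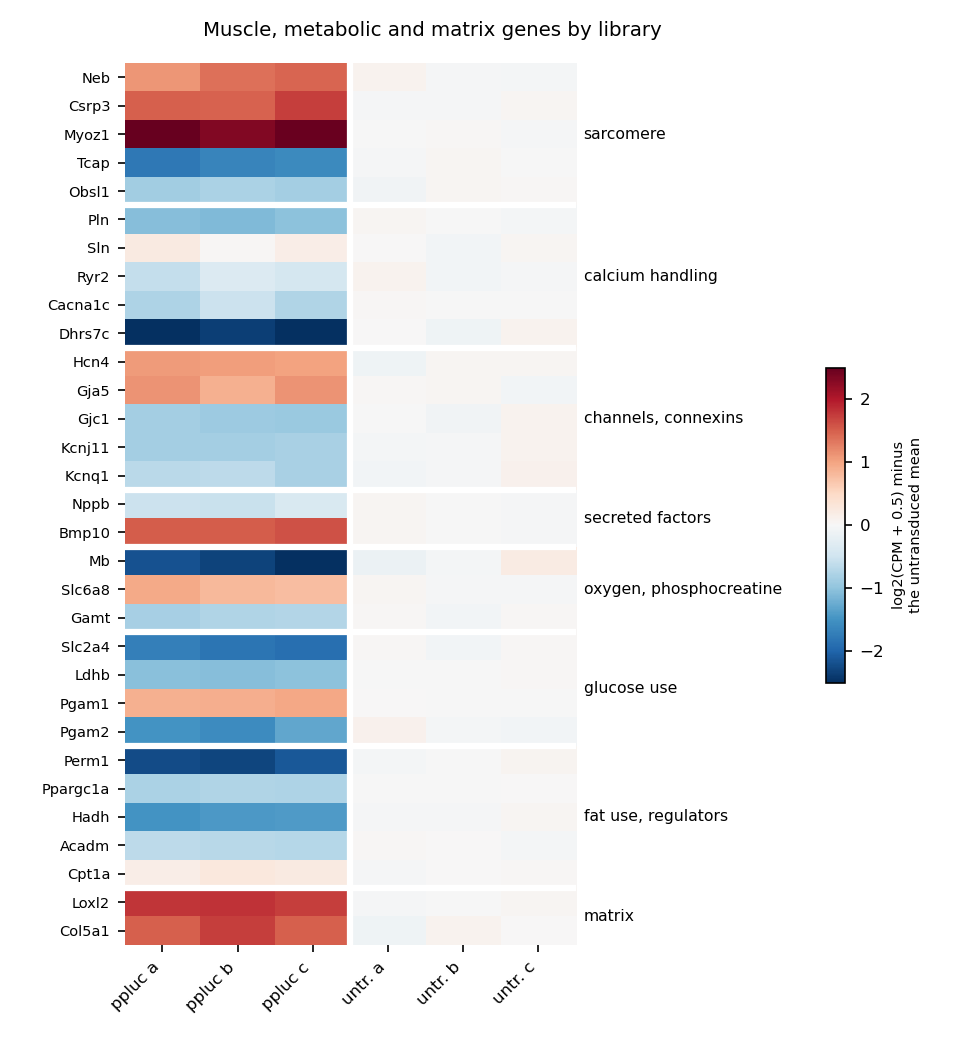
Each cell gives log2(CPM + 0.5) of a library minus the mean of the 3 untransduced libraries, on a colour scale of ±2.5, for genes of the sarcomere, calcium, channels, peptides, energy supply and matrix, with the ppluc shRNA libraries left. Csrp3, Neb, Hcn4, Bmp10 and the matrix genes Loxl2 and Col5a1 are higher with ppluc shRNA, while Tcap, Pln, Mb, Slc2a4 and Pgam2 are lower.

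Genes that store and move energy were called throughout: all 18 kept genes of oxygen storage, phosphocreatine and adenylate handling passed the test, 10 lower and 8 higher. Beside Mb, Gamt, the last enzyme of creatine synthesis, had 15.3, 16.2 and 16.5 CPM with ppluc shRNA, against 28.2, 26.3 and 28.4 CPM in untransduced cells, a log2 fold change of -0.77 ± 0.08. Slc6a8, the creatine transporter, rose, with 158, 142 and 138 CPM in the ppluc shRNA libraries and 84.03, 79.8 and 79.5 CPM in the untransduced libraries, a log2 fold change of 0.84 ± 0.05. The muscle creatine kinases, picked after their values were seen, averaged 12.7 CPM with ppluc shRNA and 48.1 CPM in untransduced cells for Ckm and 4.02 CPM with ppluc shRNA and 13.8 CPM in untransduced cells for the mitochondrial Ckmt2. Ckb, the brain form of creatine kinase picked in the same way, averaged 186 CPM with ppluc shRNA and 125 CPM in untransduced cells. Cox6a2, the muscle form of a cytochrome oxidase subunit, rose at low counts, with 3.97, 3.36 and 4.59 CPM with ppluc shRNA and 1.20, 1.52 and 1.34 CPM without transduction.

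The mitochondrial groups moved one way in nearly all called members. Of 35 kept genes listed under nuclear complex I, 25 fell and none rose, with a median of -0.26. Of 40 subunits of complexes II to V, 31 fell and none rose, with a median of -0.28. With trimmed-mean scaling 21 of the complex I list fell and none rose, while 26 subunits of complexes II to V fell and 2 rose. Ndufa4, a subunit of the respiratory chain that was counted in the complex I list, had 173, 164 and 180.3 CPM with ppluc shRNA, against 275, 244 and 252 CPM in untransduced cells, a log2 fold change of -0.57 ± 0.06. Uqcr11, of complex III, had 71.8, 68.7 and 74.3 CPM in the ppluc shRNA libraries and 118, 106 and 113 CPM in the untransduced libraries, a log2 fold change of -0.65 ± 0.07. Atp5g1, a subunit of the membrane ring of ATP synthase, had 159, 164 and 156 CPM with ppluc shRNA and 267, 241 and 259 CPM without transduction, a log2 fold change of -0.67 ± 0.09. The changes were small, but the groups did not overlap in these 3 genes, which were named for a small p or a large fall. Of the 13 mRNAs encoded in mitochondrial DNA, 7 had reads fixed to 1 solution, and all 7 of these fell. Mt-nd4 had 304, 233 and 219 CPM with ppluc shRNA, against 451, 453 and 394 CPM in untransduced cells, a log2 fold change of -0.79 ± 0.09. Of the other 6, whose library reads were uncertain, the authors' average was lower with ppluc shRNA in each.

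Fatty acid use fell in 20 of 25 kept genes and rose in 1, with a median of -0.41, and the citric acid cycle with pyruvate dehydrogenase fell in 18 of 24 and rose in 1, with a median of -0.31. Acsl1, which activates fatty acids, had 74.005, 78.3 and 76.03 CPM in the ppluc shRNA libraries and 127, 137 and 126 CPM in the untransduced libraries, a log2 fold change of -0.77 ± 0.05. Acadm, the medium-chain dehydrogenase, had 99.6, 97.5 and 95.5 CPM with ppluc shRNA and 162, 159 and 153 CPM without transduction, a log2 fold change of -0.69 ± 0.05. Cpt1a, the liver form of the carnitine transferase that admits fatty acids to mitochondria, was the gene that rose, with 167, 179 and 175 CPM with ppluc shRNA, against 146, 151 and 152 CPM in untransduced cells, a log2 fold change of 0.22 ± 0.04. Acsl1 and Acadm thus lay below the untransduced range and Cpt1a above it. In the citric acid cycle Ogdh had 129, 138 and 139 CPM in the ppluc shRNA libraries and 204, 201 and 203 CPM in the untransduced libraries, a log2 fold change of -0.58 ± 0.05, while citrate synthase, Cs, rose by 0.24 ± 0.05 on the log2 scale. Regulators of mitochondrial biogenesis fell in 12 of 24 and rose in 3, or fell in 11 and rose in 5 with trimmed-mean scaling. Ppargc1a, the coactivator that drives the mitochondrial programme, had 18.7, 19.2 and 19.004 CPM with ppluc shRNA and 32.4, 32.7 and 32.95 CPM without transduction, a log2 fold change of -0.77 ± 0.08. Tfb2m, a mitochondrial transcription factor, had a log2 fold change of -0.79 ± 0.07, and Pparg, a fat cell receptor, rose at low counts with 6.52, 5.50 and 6.06 CPM with ppluc shRNA, against 3.59, 3.41 and 2.94 CPM in untransduced cells.

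Glycolysis was even by count, with 9 of 23 kept genes higher and 9 lower (39.1% each), against 25.8% and 33.9% over all features. Pgam2, the muscle phosphoglycerate mutase, had 9.47, 8.96 and 10.98 CPM in the ppluc shRNA libraries and 29.7, 26.9 and 26.5 CPM in the untransduced libraries, a log2 fold change of -1.45 ± 0.14. Pgam1, the general form, had 776, 785 and 823 CPM with ppluc shRNA and 424, 414 and 416 CPM without transduction, a log2 fold change of 0.93 ± 0.05. Slc2a4, the insulin-responsive glucose transporter of muscle and fat, had 2.66, 2.44 and 2.31 CPM with ppluc shRNA, against 10.1, 9.39 and 10.1 CPM in untransduced cells, a log2 fold change of -1.80 ± 0.15 (limma adjusted p = 9.24e-09). Each pair of ranges was separate. Ldhb, the heart form of lactate dehydrogenase, had 107, 105 and 107 CPM in the ppluc shRNA libraries and 219.9, 218 and 224 CPM in the untransduced libraries, a log2 fold change of -1.05 ± 0.07. Of 24 genes of cholesterol synthesis kept, 12 fell and 1 rose, or 10 fell and 2 rose with trimmed-mean scaling. Insig1, which holds the sterol sensor in the endoplasmic reticulum, had 112, 105 and 97.98 CPM with ppluc shRNA and 193, 193 and 189.6 CPM without transduction, a log2 fold change of -0.87 ± 0.07, and Lss, the cyclase that makes lanosterol, had a log2 fold change of 0.45 ± 0.06.

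**Figure D5:**
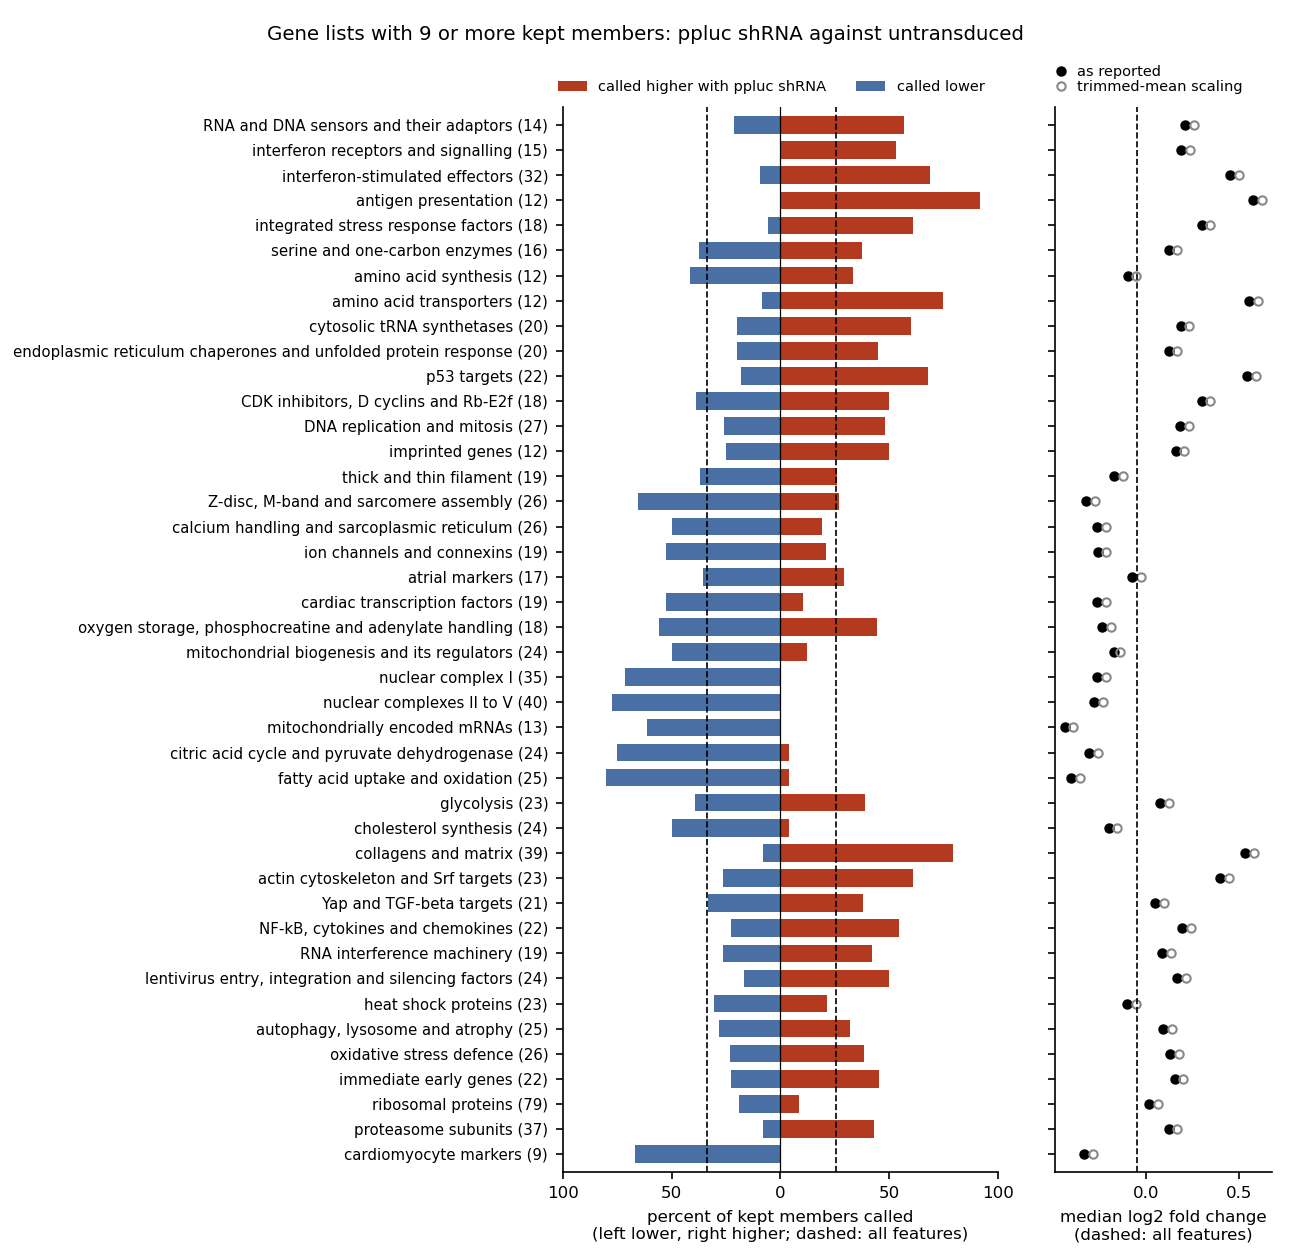
Left, the percent of kept members called higher (to the right) and lower (to the left) for 42 gene lists with 9 or more kept members, with the shares over all features, 25.8% and 33.9%, as dashed lines. Right, the median log2 fold change of each list as reported and with trimmed-mean scaling of the libraries. By percent called, antigen presentation, matrix and amino acid transporters lie furthest to the right, and fatty acid oxidation, complexes II to V and the citric acid cycle furthest to the left. By median as reported, antigen presentation lies furthest to the right (0.58) and mitochondrially encoded mRNAs furthest to the left (-0.44).

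Matrix genes rose in 31 of 39 kept members and fell in 3, with a median of 0.53. Col5a1, a chain of fibrillar collagen V, had 673, 794 and 677 CPM with ppluc shRNA, against 224, 254 and 243 CPM in untransduced cells, a log2 fold change of 1.57 ± 0.08. Loxl2, an oxidase that crosslinks collagen, had 103, 105 and 99.4 CPM in the ppluc shRNA libraries and 28.7, 29.2 and 30.4 CPM in the untransduced libraries, a log2 fold change of 1.78 ± 0.05 (limma adjusted p = 1.11e-14). The lowest ppluc shRNA library was above the highest untransduced library in both. The authors' averages were 3906 CPM with ppluc shRNA and 2191 CPM in untransduced cells for fibronectin, Fn1, 3749.8 CPM with ppluc shRNA and 2046 CPM in untransduced cells for Sparc, and 2759.8 CPM with ppluc shRNA and 1423 CPM in untransduced cells for Col4a1, all among the 10 largest gains in CPM. Of 23 genes of the actin cytoskeleton 14 rose and 6 fell, with a median of 0.40. Cnn2, an actin-binding calponin, had 201, 202 and 214 CPM with ppluc shRNA and 111, 110.1 and 115 CPM without transduction, a log2 fold change of 0.87 ± 0.06. The authors' averages of Actb, cytoplasmic actin, were 3230.0 CPM with ppluc shRNA and 2286 CPM in untransduced cells.

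Targets of Yap and TGF-beta were split. Of 21 kept, 8 rose (38.1%) and 7 fell (33.3%), against 25.8% higher and 33.9% lower over all features. Cyr61, a matricellular protein, had 54.4, 54.3 and 51.4 CPM in the ppluc shRNA libraries and 91.1, 115 and 100.05 CPM in the untransduced libraries, a log2 fold change of -0.92 ± 0.08. Ajuba, a scaffold of the Hippo pathway, had 82.4, 84.4 and 82.6 CPM with ppluc shRNA and 44.8, 44.3 and 47.7 CPM without transduction, a log2 fold change of 0.86 ± 0.04. Of 22 genes of NF-kB, cytokines and chemokines kept, 12 rose and 5 fell. Cxcl10, a chemokine induced by interferon, had 4.59, 5.11 and 4.08 CPM with ppluc shRNA, against 1.85, 1.52 and 1.62 CPM in untransduced cells, a log2 fold change of 1.23 ± 0.11, and Lif, a cytokine of the Il6 family, had 15.4, 14.996 and 16.8 CPM in the ppluc shRNA libraries and 7.35, 8.48 and 8.67 CPM in the untransduced libraries, a log2 fold change of 0.91 ± 0.08. Il6, Il1b, Tnf and Ccl5 were under 0.5 CPM in both averages. Of immediate early genes 10 of 22 kept rose and 5 fell. Klf4, a zinc finger transcription factor, had 96.1, 95.5 and 89.9 CPM with ppluc shRNA and 28.04, 25.4 and 25.5 CPM without transduction, a log2 fold change of 1.82 ± 0.07 (limma adjusted p = 1.66e-12). Jund, of the AP-1 family, had 195, 207 and 179 CPM with ppluc shRNA, against 80.8, 84.6 and 93.1 CPM in untransduced cells, a log2 fold change of 1.16 ± 0.09, and Egr1 had 20.2, 18.6 and 17.8 CPM in the ppluc shRNA libraries and 28.9, 41.4 and 35.3 CPM in the untransduced libraries, a log2 fold change of -0.87 ± 0.11.

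Lists of oxidative stress, turnover, heat shock and ribosomal genes held calls in both directions. Oxidative stress defence had 10 of 26 kept genes higher and 6 lower, or 3 lower under either other scaling, without untransduced library c and without ppluc shRNA library a. Hmox1, which breaks down haem, had 90.97, 91.3 and 84.6 CPM with ppluc shRNA and 42.9, 39.3 and 42.8 CPM without transduction, a log2 fold change of 1.08 ± 0.05, and Srxn1, which repairs peroxiredoxins, had 8.51, 9.27 and 8.75 CPM with ppluc shRNA, against 2.98, 3.75 and 3.73 CPM in untransduced cells, a log2 fold change of 1.23 ± 0.10. Of 25 genes of autophagy, the lysosome and atrophy, 8 rose (32%) and 7 fell (28%), near the shares over all features. Under either other scaling 13 rose. Lamp2, a protein of the lysosome membrane, had 717, 669 and 659 CPM in the ppluc shRNA libraries and 341, 324 and 322 CPM in the untransduced libraries, a log2 fold change of 1.05 ± 0.05. Trim63, a ubiquitin ligase of muscle atrophy, had 128, 131 and 135 CPM with ppluc shRNA and 217, 213 and 229 CPM without transduction, a log2 fold change of -0.74 ± 0.07. Heat shock proteins rose in 5 of 23 kept features (21.7%) and fell in 7 (30.4%), near the shares over all features. When the 6 libraries were fitted alone, 11 fell. Hspb6 had 91.3, 99.8 and 101 CPM with ppluc shRNA, against 55.4, 57.3 and 61.5 CPM in untransduced cells. Bag3 had 265, 273 and 257 CPM in the ppluc shRNA libraries and 367, 393 and 393 CPM in the untransduced libraries. Of 79 ribosomal protein genes kept, 7 rose and 15 fell, and these counts were 14 and 7 with trimmed-mean scaling and 13 and 8 with median-of-ratios scaling. Leaving out ppluc shRNA library c gave 4 higher, and leaving out library b gave 11 higher and 7 lower. Rpl6 had 59.5, 58.7 and 63.5 CPM with ppluc shRNA and 96.95, 99.3 and 103 CPM without transduction, a log2 fold change of -0.72 ± 0.06.

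Of 37 proteasome subunits kept, 16 rose and 3 fell, and 1 of the falls was far larger than any other change of the list. Psmd2, a scaffold subunit of the regulatory particle, had 133, 134 and 129 CPM with ppluc shRNA, against 330.5, 321 and 326 CPM in untransduced cells, a log2 fold change of -1.30 ± 0.05 (limma adjusted p = 2.32e-13). Its ppluc shRNA libraries lay close together and far below the untransduced range. The next lowest subunit, Psma3, had a log2 fold change of -0.68 ± 0.09, and the highest, the immunoproteasome subunit Psmb10 given above, 0.58 ± 0.07.

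Markers of other cell types were present in part. Of 9 cardiomyocyte markers kept, 6 were called lower and none higher, with a median of -0.33. Of 9 fibroblast markers, Pdgfra, Dcn, Lum, Tcf21, Dpt and Thy1 were under 0.5 CPM in both averages, while Ddr2 and Col1a1 rose and Pi16 fell. Ddr2, a collagen receptor, had 16.8, 17.5 and 17.3 CPM in the ppluc shRNA libraries and 6.54, 8.88 and 7.78 CPM in the untransduced libraries, a log2 fold change of 1.11 ± 0.12. The summed level of the fibroblast markers was 133 to 166 CPM over the ppluc shRNA libraries, against 88.1 to 97.6 CPM over the untransduced libraries, and its part in the rise of matrix genes was not tested. Of 8 smooth muscle and pericyte markers, 4 were kept, of which Cspg4 and Notch3 rose and Acta2 and Myh11 were not called, and Rgs5, Pdgfrb, Kcnj8 and Abcc9 were under 0.5 CPM. Their averages summed to 7170 CPM with ppluc shRNA and 7860 CPM in untransduced cells, nearly all of it from Acta2, an actin that immature heart muscle cells also make. Cspg4, a proteoglycan of pericytes, had 259, 321 and 269 CPM in the ppluc shRNA libraries and 174, 166 and 163 CPM in the untransduced libraries, a log2 fold change of 0.75 ± 0.09. Of 7 epicardial markers, Upk3b rose, Tbx18 and Aldh1a2 were not called, and Wt1, Upk1b, Msln and Krt19 were under 0.5 CPM, with a summed level of 227 to 242 CPM with ppluc shRNA, against 222 to 237 CPM in untransduced cells. Gfap, a filament protein of glia, fell, with 0.966, 0.668 and 1.16 CPM with ppluc shRNA, against 1.46, 1.86 and 1.85 CPM in untransduced cells, a log2 fold change of -0.65 ± 0.17. Of the endothelial markers, Cdh5, Tek, Emcn, Cldn5 and Esam were under 0.5 CPM. Of the 3 endothelial markers kept, 1 rose and 2 were not called. Flt1, a receptor of vascular growth factors, was the marker that rose. It had 42.3, 46.2 and 41.5 CPM with ppluc shRNA and 17.6, 17.5 and 16.99 CPM without transduction, a log2 fold change of 1.29 ± 0.08. Of the immune markers, Ptprc, Cd68, Csf1r, Cd3e, Lyz2, Adgre1 and Cd79a were under 0.5 CPM, and Mrc1, the 1 kept, had 0.418, 0.0770 and 0.274 CPM with ppluc shRNA, against 1.13, 0.745 and 0.884 CPM in untransduced cells.

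The levels in the 2 groups with shRNAs against Sbk2 are set beside those of ppluc shRNA and untransduced cells without a test, since all vector groups are set against the same untransduced libraries. Cdkn1c averaged 709 CPM with ppluc shRNA, 673 CPM with Sbk2 shRNA 1, 529.8 CPM with Sbk2 shRNA 2 and 134 CPM in untransduced cells. Slc7a1 averaged 59.4 CPM with ppluc shRNA, 48.2 CPM with Sbk2 shRNA 1, 85.2 CPM with Sbk2 shRNA 2 and 13.99 CPM in untransduced cells. Ago2 averaged 96.9 CPM with ppluc shRNA, 75.6 CPM with Sbk2 shRNA 1, 118 CPM with Sbk2 shRNA 2 and 36.7 CPM in untransduced cells. Trib3 averaged 7.76 CPM with ppluc shRNA, 7.78 CPM with Sbk2 shRNA 1, 106 CPM with Sbk2 shRNA 2 and 2.90 CPM in untransduced cells, and Mb averaged 1.71 CPM with ppluc shRNA, 0.122 CPM with Sbk2 shRNA 1, 0.0703 CPM with Sbk2 shRNA 2 and 10.8 CPM in untransduced cells. Psmd2 averaged 132 CPM with ppluc shRNA, 421 CPM with Sbk2 shRNA 1, 585 CPM with Sbk2 shRNA 2 and 326 CPM in untransduced cells. Tmsb4x, an actin-binding peptide, averaged 90.9 CPM with ppluc shRNA, 176 CPM with Sbk2 shRNA 1, 215 CPM with Sbk2 shRNA 2 and 259.6 CPM in untransduced cells, and Cilp2, a matrix protein, averaged 0.247 CPM with ppluc shRNA, 3.004 CPM with Sbk2 shRNA 1, 11.2 CPM with Sbk2 shRNA 2 and 3.07 CPM in untransduced cells. Map2k6, a kinase of the p38 pathway, averaged 0.575 CPM with ppluc shRNA, 0.489 CPM with Sbk2 shRNA 1, 12.1 CPM with Sbk2 shRNA 2 and 5.31 CPM in untransduced cells. Psmd2, Tmsb4x, Cilp2 and Map2k6 were singled out after their values were seen, as examples of levels that are lowest or near lowest with ppluc shRNA. Csrp3 averaged 61.4 CPM with ppluc shRNA, 17.5 CPM with Sbk2 shRNA 1, 5.33 CPM with Sbk2 shRNA 2 and 20.4 CPM in untransduced cells, and Neb averaged 36.7 CPM with ppluc shRNA, 20.1 CPM with Sbk2 shRNA 1, 4.82 CPM with Sbk2 shRNA 2 and 14.4 CPM in untransduced cells, where the ppluc shRNA average was the highest of the 4 groups.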

How the data were processed

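PolyA-selected, stranded libraries were sequenced with paired 150-bp reads, per the labels' protocols. The authors deposited CPM values (read counts over the library total) and TPM values (also scaled by length), both averaged over the 3 libraries of a group, per the file headers. Rnor_6.0 and DESeq2 are named in the submitters' processing notes, while no source used here gives the aligner, the counter or what DESeq2 was used for. The deposited TPM served as levels for checks and entered no test.

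Library reads were recovered as the triples of whole reads that return a stored CPM average to 15 significant digits. Exactly 1 triple was found for 99.78% of features with ppluc shRNA and 99.85% in untransduced cells, and on simulated libraries such single triples were right in 100% of cases. Where several triples returned the average, the only one within the usual spread (a CV of up to 0.133 with ppluc shRNA and 0.0824 in untransduced cells) was used, in 31 features with ppluc shRNA and 35 in untransduced cells, among them eGFP with ppluc shRNA and Actb in both groups. In 48 kept features, most of them abundant, the reads stayed uncertain in 1 or both groups, and for those that are named the authors' averages are printed without an error. These features stayed in the fit, the called totals and the list counts with reads that are not fixed. Leaving them out gave 3063 features called higher and 4039 lower, against 3078 and 4041. Reads summed over features differed from the library totals by up to 1.3%.

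Features with at least 0.5 CPM in either average were fitted as log2(CPM + 0.5) with limma 3.58.1 (R 4.3.3, lmFit, eBayes with a trend) over all 12 libraries with 1 mean per group, and calls used a Benjamini-Hochberg adjusted p under 0.05. Simulated data for this comparison held 11915 genes, of which 66 were changed by 0.5 (log2), 67 by 1 and 67 by 2. Of these, 68.2% of changes of 0.5 and 100.0% of changes of 1 and 2 were recovered, with 12 false calls. In the data 59.7% of features were called. With so few changed genes, the simulation does not give the recovery or the false calls of this comparison. Alternatives were 2 other scalings, totals without vector features, pseudocounts, filters, a fit of the 6 libraries alone, voom weights and each library left out. Named genes are, by rule, the 15 with the largest log2 rise and the 15 with the largest fall (called, libraries apart, 1 CPM or more), the 10 largest gains and losses of CPM, up to 4 members of each list by p with its extremes, 4 marker genes and the Sbk genes, of which the text prints part. Genes outside this rule, among them those named only as not called, as under the filter or for a motif, were picked after their values were seen. The comparison, its marker genes and the 49 lists were chosen with earlier results of these data known. Recovery, tables and figures used pandas 2.3.3 and numpy 2.4.6 with matplotlib 3.10.9 in Python 3.11.15.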

Additional observations from a re-analysis of the deposited data

How the results depend on the processing

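Of 4 summary counts over 17 alternatives, 1 moved by more than 1.5 times: with voom weights 869 features were called and changed 2-fold or more, against 536. The called totals were 3596 higher and 3531 lower with trimmed-mean scaling and 3573 higher and 3541 lower with median-of-ratios scaling, against 3078 and 4041. Leaving out 1 library at a time gave 2783 to 2933 higher, 3639 to 3785 lower, 543 to 559 of 2-fold or more, and 600 to 622 called list members, against 656. Of the 7119 called features, 5636 were called in the same direction under all 17 alternatives. No named gene changed sign, and 237 of 243 kept their side of the threshold throughout. The other 6 lost the call somewhere: Myl7 under 8 alternatives, Clu and Gpx3 under 7, Mt-nd2 under 5, Notch3 under 2 and Nppa under 1, and the cause was not tested. Leaving out features of uncertain reads was chosen after seeing the data, and gave 642 called list members. No paired analysis was possible because the deposited columns are group averages and the recovered libraries carry no replicate number. With a median SE of 0.18 between 0.5 and 2 CPM, small changes of low genes were not detectable at this depth.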
